A study of Mus musculus with 2 samples.

Results

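The STAT transcription factors were described in common myeloid progenitors, bone marrow cells from which granulocytes, monocytes, platelet-forming cells and red cells descend. The members were 6 named genes, Stat2, Stat3, Stat4, Stat5a, Stat5b and Stat6, matched by Ensembl identifier among 43346 Ensembl genes in the deposited tables. Total RNA depleted of ribosomal RNA was sequenced from ScriptSeq libraries that started from 100 ng. The donors of these primary cells were adult C57BL/6J males 5 to 6 weeks old, with no treatment and no altered allele named in the labels. There were 2 libraries of 1 group, biological replicates 1 and 2, and no second condition, so no test between conditions was possible. Both libraries carry the same donor label, and the labels do not say whether animals were pooled, so the spread between them may be partly technical.

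STAT proteins wait in the cytoplasm until a cytokine receptor, through its JAK kinase, phosphorylates a tyrosine near their carboxyl end. Phosphorylated STAT proteins pair through their SH2 domains, enter the nucleus and bind DNA, and SOCS proteins, many of them STAT targets, shut the signal off. In blood formation Stat5a and Stat5b act below the receptors for erythropoietin and interleukin-3, Stat3 below the interleukin-6 family and G-CSF receptors, Stat2 below the interferon receptors, Stat4 below the interleukin-12 receptor and Stat6 below the interleukin-4 receptor. RNA levels do not show whether the proteins were phosphorylated.

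Total expected counts came to 28158803 for replicate 1 and, at 2.985 times that depth, to 84041054 for replicate 2. The labels state a size range of 200 to 1000 for replicate 1 and of 187 to 1606 for replicate 2, with no unit. Levels below are in TPM, which corrects for transcript length and is relative to everything in the table. Nuclear protein-coding genes made up 20.1% of summed TPM in replicate 1 and 21.5% in replicate 2, but 81.8% and 80.2% of expected counts. Levels in TPM here are thus lower than levels relative to protein-coding genes alone would be. Over all nuclear protein-coding genes, 42.5% stood at 1 TPM or more in both libraries. All 7 common myeloid progenitor markers did so. Cd34 had 125 and 121 TPM and Kit 33.5 and 39.8 TPM in replicates 1 and 2. Ly6a, the gene of the stem cell antigen Sca-1, stood at 0.69 and 0.73 TPM. Of 7 genes held to be low in the sort gate, Ly6a among them, 2 reached 1 TPM in both libraries: Fcgr3, an Fc receptor, at 1.63 and 3.48 TPM and Itgam, the myeloid integrin Mac-1, at 2.35 and 3.01 TPM. Of 13 T and NK cell markers 2 reached 1 TPM in both libraries (Lck and Nkg7), their summed level was 21.7 and 23.5 TPM, and Cd3e, Cd8a, Ncr1 and Prf1 were at 0 in both. Of 7 B cell markers 2 did so (Cd79b and Ighm), with a sum of 37.0 and 38.4 TPM and with Cd79a, Pax5, Ms4a1 and Ebf1 at 0. Of 8 macrophage and monocyte markers 5 did so, with a sum of 72.5 and 78.0 TPM, and of 8 stromal and endothelial markers 2 did so, with a sum of 12.3 and 17.8 TPM. In such bulk samples fewer cells of a type and less RNA per cell cannot be told apart.

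The feature that makes these genes a family was read first from their coding sequences. In an alignment of 1 translated full-length form of each gene, 2 columns held a tyrosine in all 6 proteins, and the later of them fell at residue 705 of Stat3, the tyrosine that JAK kinases are known to phosphorylate. The coding bases around that codon are shown because they carry the switch that the members share. Capitals mark the tyrosine codon, and each stretch runs 5′ to 3′ on the gene's own strand (GENCODE M21 transcripts, GRCm38).
Stat2: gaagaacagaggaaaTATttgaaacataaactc
Stat3: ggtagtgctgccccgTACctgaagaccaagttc
Stat4: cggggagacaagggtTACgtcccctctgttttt
Stat5a: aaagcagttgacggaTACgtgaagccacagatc
Stat5b: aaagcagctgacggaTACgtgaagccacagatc
Stat6: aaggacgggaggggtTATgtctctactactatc

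The codon encodes residue 688 of 922 in Stat2, 705 of 770 in Stat3, 693 of 748 in Stat4, 694 of 793 in Stat5a, 699 of 786 in Stat5b and 641 of 837 in Stat6. Stat2 and Stat6 spell the tyrosine TAT, and the other members spell it TAC. Stat5a and Stat5b differed at a single base in the stretch shown. Over their whole length these paralogs were identical at 93.5% of 781 aligned residues and at 90.3% of 2343 aligned coding bases. The next closest pair was Stat3 and Stat4 at 48.6% of residues, followed by Stat5b and Stat6 at 43.4%, and the most distant was Stat2 and Stat5a at 26.4%.

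All 6 STAT genes were transcribed at 1 TPM or more in both libraries, a level reached by 42.5% of nuclear protein-coding genes (9116 of 21461). Stat3, at chr11:100885098-100939540 on the minus strand, had 12.5 TPM in replicate 1 and 16.7 TPM in replicate 2, averaging 14.6 ± 2.96 TPM (SD, n = 2 here and below). Stat5b, at chr11:100780731-100850724 on the minus strand, had 10.3 and 14.3 TPM, a mean of 12.3 ± 2.81 TPM. Stat5a, at chr11:100859351-100885169 on the plus strand, had 9.27 and 11.7 TPM, a mean of 10.5 ± 1.72 TPM. These neighbours on chromosome 11 held the highest levels of the family, and the ranges of each and the next overlapped.

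Stat6, at chr10:127642986-127660957 on the plus strand, had 6.9 TPM in replicate 1 and 10.8 TPM in replicate 2, averaging 8.84 ± 2.74 TPM. Stat4, at chr1:51987148-52107189 on the plus strand, had 5.46 and 8.74 TPM, a mean of 7.1 ± 2.32 TPM. Their ranges overlapped with each other, and that of Stat6 also overlapped that of Stat5a. Stat2, at chr10:128270559-128292849 on the plus strand, had 1.49 and 1.47 TPM, a mean of 1.48 ± 0.0141 TPM, and was the lowest member in both libraries with no overlap with Stat4. Both libraries gave the same order of the 6 genes.

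Of the reads behind these levels, Stat2 had the fewest, 474 in replicate 1 and 1198 in replicate 2, and Stat5b the most, 3850 and 12681. Stat3 had 2340 and 7756 reads, Stat6 1839 and 6303, and Stat4 934 and 3277. Among the 9116 protein-coding genes at 1 TPM or more in both libraries, Stat3 stood at percentile 70.1 in replicate 1 and 75.1 in replicate 2, Stat5b at 64.1 and 70.6, and Stat2 at 5.78 and 2.95. Stat3 was thus of upper middle level within that set, and Stat2 was near its lower end, which the cut at 1 TPM sets. Over all 21461 nuclear protein-coding genes, Stat3 stood at percentile 87.3 in replicate 1 and 89.4 in replicate 2, and Stat2 at 59.5 and 57.9.

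Gene levels sum over transcript models, and for some members much of the sum lay outside the full-length coding models (a coding sequence of at least 1500 bases). Retained-intron models, which keep an intron and carry no annotated coding sequence, made up 37.3% of Stat3 TPM in replicate 1 and 38.4% in replicate 2. They held 16.1% and 34.4% of Stat4 TPM and 2.17% and 0.557% of Stat6 TPM. The background was 4259 nuclear protein-coding genes with such a model and at least 100 expected counts in each library. Their median was 7.65% and 9.01%, so Stat3 stood at percentile 85.5 and 87.5, Stat4 at 66.3 and 84.8 and Stat6 at 32.5 and 18.4. Per read the share was smaller, 6.22% and 6.86% for Stat3, because these models are short. Stat3-213, a model of 396 bases, held 20.2% and 13.2% of Stat3 TPM with 35.1 and 83.5 expected counts.

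Counting full-length coding models alone put Stat5b first and Stat3 behind both Stat5 genes in each library. On that scale Stat5b had 10.3 TPM in replicate 1 and 13.2 TPM in replicate 2, Stat5a 9.04 and 10.8 TPM, and Stat3 7.84 and 10.3 TPM. Ranges of these neighbours overlapped, as did those of Stat3 and Stat6. Stat6 had 6.75 and 8.84 TPM, Stat4 4.57 and 5.73 TPM, and Stat2 1.49 and 1.47 TPM, and here neither Stat6 and Stat4 nor Stat4 and Stat2 overlapped. Stat4 was 1.60 times as high in replicate 2 as in replicate 1 over all models and 1.25 times as high over full-length coding models.

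**Figure D1:**
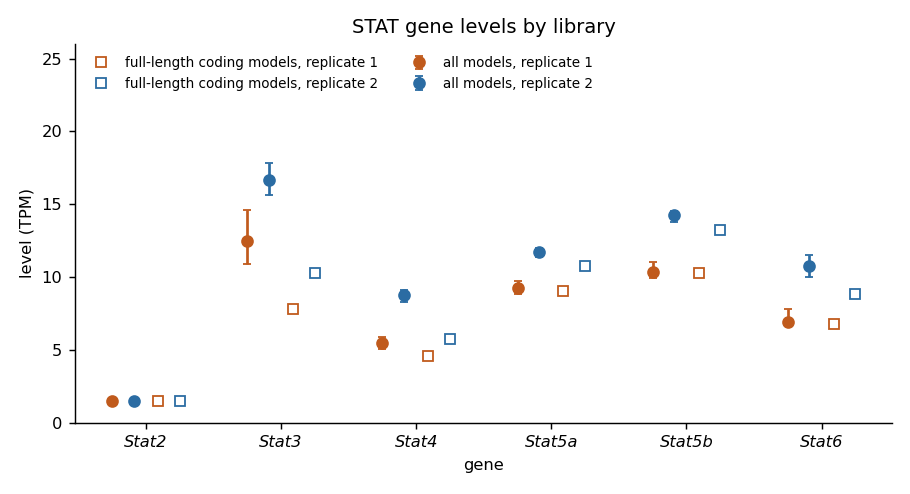
Level of each STAT gene in TPM (y axis), for replicate 1 in orange and replicate 2 in blue. Filled circles sum all transcript models, with bars for the deposited interval bounds, whose level is not stated, and open squares sum full-length coding models; Stat3 drops behind Stat5b when other models are left out, and Stat2 sits near 1.5 TPM throughout.

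**Figure D2:**
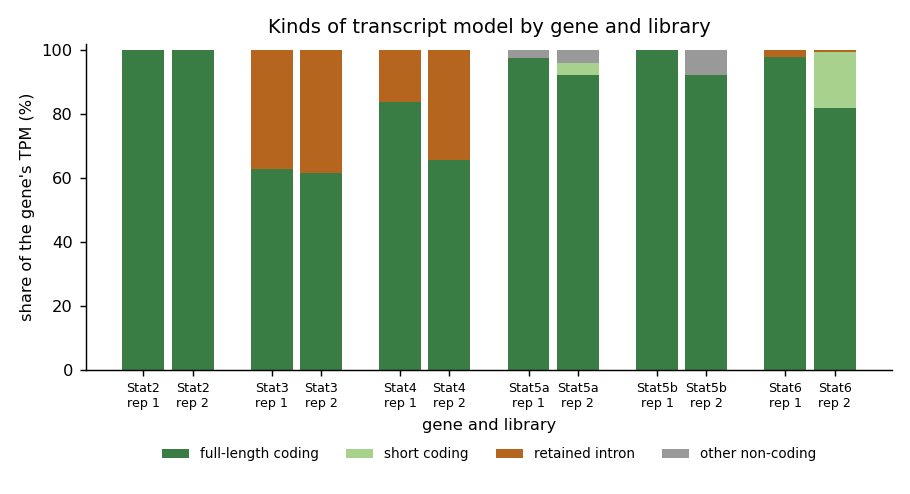
Share of each gene's TPM (y axis, percent) held by kinds of transcript model, with replicate 1 to the left of replicate 2 for each gene. Retained-intron models take 37.3% and 38.4% of Stat3. Stat2, Stat5a and Stat5b have no annotated model of that kind, so their lack of such a share comes from the annotation.

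The Stat5 paralogs, the family members used by erythropoietin and interleukin-3, together held 42.6% of the family's summed TPM in replicate 1 and 40.8% in replicate 2. Over full-length coding models they held 48.4% and 47.7%. The log2 ratio of Stat5b over Stat5a was 0.15 in replicate 1 and 0.29 in replicate 2 (0.22 ± 0.09), so that Stat5b was 1.11 and 1.22 times as high per length. Stat5b was higher in both libraries, while its range overlapped that of Stat5a across libraries. In reads not corrected for length the ratio was 1.55 and 1.63, and the models of Stat5b are longer.

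How far reads could be split between such alike genes was read from the tables. The coding and untranslated sequences of their models shared 608 windows of 50 bases, 8.21% of the Stat5a windows and 11.0% of the Stat5b windows, and no other pair of members shared any. Expected counts of Stat5a (2482.14 and 7785.76) and of Stat5b (3849.86 and 12681.24) were not whole, but their sums were whole, 6332 and 20467. The deposited posterior SD of either count was 8.26 reads in replicate 1 and 13.7 reads in replicate 2. The part of the split that the quantifier left uncertain was thus small beside either count.

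Stat5b and Stat5a lie head to head, with 8627 bases between the annotated starts of the genes, and the 3′ end of Stat5a meets that of Stat3. The last exon of Stat5a overlaps that of Stat3-202, the beta model described below, by 72 bases on opposite strands. No other Stat3 model reaches Stat5a. Whether the counting used strand is not given in the sources used here, and the part of Stat5a reads in the Stat3-202 estimate was not tested. Stat6 likewise overlaps Nab2, on the opposite strand, by 40 bases, and Nab2 stood at 1.41 TPM in replicate 1 and 1.25 TPM in replicate 2.

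Stat5b had a pair of starts with the same coding sequence, 28196 bases apart. Stat5b-201, from the upstream start, had 6.99 TPM in replicate 1 and 10.6 TPM in replicate 2, and Stat5b-202, from the internal start, had 3.32 and 2.56 TPM. The upstream form was the higher one in both libraries, at 67.8% and 80.6% of full-length coding Stat5b. The window of 300 bases around the upstream start (RefSeq, GRCm38.p6) held 82.7% G and C and 50 CG pairs, and the window around the internal start 47.3% and 7, against medians of 52.7% and 7 over 32851 RefSeq start windows. Of Stat5a the form Stat5a-202 had 5.91 and 10.6 TPM, which was 65.4% and 98.7% of its full-length coding level. Its alternative first exon Stat5a-201, which starts 305 bases away and encodes the same protein, had 0.92 and 0.04 TPM. Stat5a-203, which starts in the later start window and has a coding sequence of 2391 bases against 2379, had 2.21 and 0.1 TPM, 23.8% and 0.855% of the gene. The split among these 3 forms differed widely between the libraries, and Stat5a-203 made up more of that difference than Stat5a-201.

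The internal Stat5b start and the later Stat5a start window shared a stretch of 65 bases with 58 identical positions (89.2%), which is shown because it lies in start regions of neighbouring genes on opposite strands. The next longest match between their start windows was 33 bases. Capitals mark identical bases. The Stat5a stretch is chr11:100860418-100860482 on the plus strand and the Stat5b stretch chr11:100822563-100822627 on the minus strand.
Stat5a: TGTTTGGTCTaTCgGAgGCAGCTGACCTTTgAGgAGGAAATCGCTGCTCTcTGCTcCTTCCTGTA
Stat5b: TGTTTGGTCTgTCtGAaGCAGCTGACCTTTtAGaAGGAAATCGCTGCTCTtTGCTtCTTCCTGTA

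Stat3, the member used by interleukin-6 and G-CSF, is known as an alpha form and a beta form, which lacks the transactivation domain at the carboxyl end. The forms differ by 50 bases at one acceptor site, chr11:100889541-100889590 on the minus strand. Capitals mark the bases that the beta form skips.
Stat3 alpha (Stat3-203): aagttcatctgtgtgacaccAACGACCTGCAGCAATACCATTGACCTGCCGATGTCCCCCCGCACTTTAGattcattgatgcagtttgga
Stat3 beta (Stat3-202): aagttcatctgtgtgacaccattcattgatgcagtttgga

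The beta model had 0.87 TPM in replicate 1 and 0.58 TPM in replicate 2, against 3.02 and 4.58 TPM for Stat3-203. It held 6.96% and 3.48% of the gene's TPM over all models, a mean of 5.22 ± 2.46%. Over full-length coding models it was the lowest of the 3 forms above 0 in both libraries, at 11.1% and 5.65%, a mean of 8.37 ± 3.85%. Its deposited bounds were 0.679 to 1.05 TPM in replicate 1 and 0.459 to 0.690 TPM in replicate 2, which overlap narrowly. The last exon of the beta model also reaches 1712 bases further than that of Stat3-203, so reads from a long 3′ end could raise its estimate without any use of the beta acceptor, and that was not tested.

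A second choice lay just before the activating tyrosine codon. The alpha models Stat3-203 and Stat3-201 differ by 3 coding bases, chr11:100893074-100893076 on the minus strand, which capitals mark in the longer form. The tyrosine codon tac stands a few bases further on.
Stat3 long (Stat3-203): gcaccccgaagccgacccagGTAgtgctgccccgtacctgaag
Stat3 short (Stat3-201): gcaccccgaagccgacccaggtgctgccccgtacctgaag

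Stat3-201, the form without these bases, had 3.95 TPM in replicate 1 and 5.11 TPM in replicate 2, the highest of any Stat3 model. It held 50.4% and 49.8% of full-length coding Stat3, a mean of 50.1 ± 0.443%, and Stat3-203 held 38.5% and 44.6%. The share of Stat3-201 thus differed little between libraries, while that of Stat3-203 differed more, with a mean of 41.6 ± 4.30%. These models differ in their 3′ ends as well, by 1426 bases of the last exon, so the estimate does not rest on the splice site alone.

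**Figure D3:**
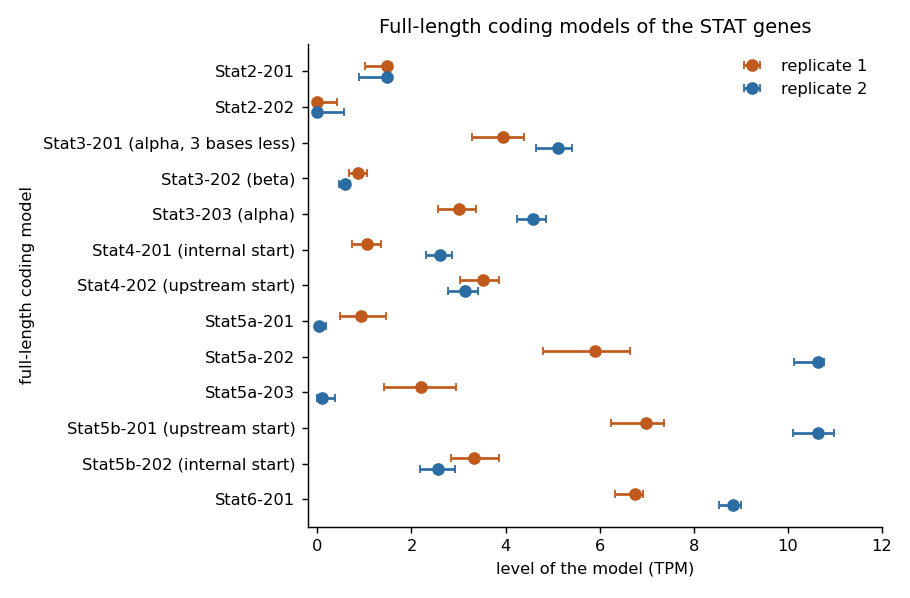
Level in TPM (x axis) of 13 full-length coding models of the STAT genes, for replicate 1 in orange above replicate 2 in blue, with bars for the deposited interval bounds. Stat3-207, at 0 in both libraries, is not drawn; the beta model of Stat3 lies under 1 TPM, and Stat5a-202 at 5.91 and 10.6 TPM and Stat5b-201 at 6.99 and 10.6 TPM lie furthest apart between the libraries.

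Stat4, best known in T and NK cells below the interleukin-12 receptor, was at a level of several TPM here, beside T and NK cell markers of which 4 of 13 were at 0 in both libraries (Cd3e, Cd8a, Ncr1 and Prf1). Of the others, Nkg7 had 19.5 TPM in replicate 1 and 18.1 TPM in replicate 2 and Lck 1.7 and 3.89 TPM, and the part of such cells in the Stat4 level was not tested. Stat4 transcripts had a pair of starts 21095 bases apart with the same coding sequence. Stat4-202, from the upstream start, had 3.51 TPM in replicate 1 and 3.13 TPM in replicate 2, with deposited bounds of 3.03 to 3.86 and of 2.77 to 3.40. Stat4-201, from the internal start, had 1.06 and 2.6 TPM, with bounds of 0.746 to 1.36 and of 2.31 to 2.86. In TPM the upstream form changed less than the internal form, and the upstream share was 76.8% in replicate 1 and 54.6% in replicate 2. Expected counts were 655 and 1499 for the upstream form and 224 and 1406 for the internal form. Replicate 2 had 2.985 times the depth, so relative to depth the upstream form was lower there and the internal form higher. Retained-intron models were also higher in TPM in replicate 2: Stat4-204 had 0 and 1.36 TPM, and Stat4-203 had 0.88 and 1.65 TPM. The stated size ranges and the depths of the libraries differ too, and their part in these splits was not tested.

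The start windows of Stat4 are shown because the models from both starts were above 0 TPM in both libraries. The ends of reads were not examined, so use of either start was not tested. They are chr1:51986898-51987197 for the upstream start and chr1:52007990-52008289 for the internal start, plus strand, from RefSeq on GRCm38.p6. Capitals mark the core of the interferon-stimulated response element, searched on both strands as GAAA, any 2 bases and GAAA.
Stat4 upstream: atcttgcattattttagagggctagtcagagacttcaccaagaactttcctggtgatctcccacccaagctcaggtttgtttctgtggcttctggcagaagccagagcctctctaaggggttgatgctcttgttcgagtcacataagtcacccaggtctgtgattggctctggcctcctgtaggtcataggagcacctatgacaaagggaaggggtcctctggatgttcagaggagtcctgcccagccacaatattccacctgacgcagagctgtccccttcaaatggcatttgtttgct
Stat4 internal: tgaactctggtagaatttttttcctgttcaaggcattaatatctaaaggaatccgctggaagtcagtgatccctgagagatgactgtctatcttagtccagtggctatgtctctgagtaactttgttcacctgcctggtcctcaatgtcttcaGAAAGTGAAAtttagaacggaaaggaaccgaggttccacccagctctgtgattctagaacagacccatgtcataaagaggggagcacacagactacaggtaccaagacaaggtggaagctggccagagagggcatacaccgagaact

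The internal window held 1 match and the upstream window none, and 3.44% of all RefSeq start windows held one (1131 of 32851). The windows had 50.7% and 46.0% G and C, close to the median, with 2 and 4 CG pairs against a median of 7. A match describes letters and not a bound site.

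Stat2, which joins Irf9 in the complex that interferon activates, was the lowest member, and its RNA was assigned to a single model. Stat2-201 held 1.49 TPM in replicate 1 and 1.47 TPM in replicate 2, and Stat2-202 was at 0 with upper bounds of 0.411 and 0.565 TPM. These models differ by 3 coding bases, chr10:128283230-128283232 on the plus strand, marked by capitals in the longer form.
Stat2 long (Stat2-202): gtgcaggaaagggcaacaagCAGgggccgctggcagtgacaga
Stat2 short (Stat2-201): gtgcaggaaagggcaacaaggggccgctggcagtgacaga

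Irf9, the DNA-binding partner of Stat2, stood at 8.31 TPM in replicate 1 and 8.55 TPM in replicate 2, above Stat2 in both. The start window of Stat2, chr10:128270248-128270547 on the plus strand (RefSeq, GRCm38.p6), held that interferon core on the opposite strand and, a few bases on, TTC and GAA with 4 bases between, the spacing that Stat6 is known to prefer. It is shown, with both marked by capitals, because of 9 start windows of the 6 genes it was the only one with 2 of the 3 motifs searched.
Stat2: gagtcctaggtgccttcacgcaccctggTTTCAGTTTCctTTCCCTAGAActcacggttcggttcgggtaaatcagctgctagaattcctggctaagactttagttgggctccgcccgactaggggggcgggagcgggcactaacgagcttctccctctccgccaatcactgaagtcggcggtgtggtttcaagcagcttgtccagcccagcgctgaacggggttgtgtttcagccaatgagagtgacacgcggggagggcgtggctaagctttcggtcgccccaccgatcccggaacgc

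Of those 9 windows, 2 held the interferon core (Stat2 and the internal Stat4 window) and 1 held TTC and GAA with 4 bases between (Stat2), which 6.95% of all windows held. None held TTC and GAA with 3 bases between (TTCNNNGAA), the site that most STAT proteins bind, which 8.30% of all windows held. No match says only that these letters were not in the window.

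Stat6, which interleukin-4 and interleukin-13 activate, had 1 full-length coding model, Stat6-201, with 6.75 TPM in replicate 1 and 8.84 TPM in replicate 2. It held 97.8% and 82.0% of the gene's TPM, and the difference lay mostly in the short coding model Stat6-202, at 0 and 1.88 TPM. Over all 6 genes, 19 of 35 models were above 0 in replicate 1 and 29 in replicate 2, the deeper library. Differences in minor models between the libraries are given as values for that reason.

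How closely the libraries measured the family was read from counts scaled to the library (CPM, with TMM factors). The log2 ratio of replicate 1 over replicate 2 was 0.24 for Stat2, -0.08 for Stat5a, -0.15 for Stat5b, -0.15 for Stat3, -0.20 for Stat6 and -0.24 for Stat4. None of the 6 passed 2-fold, a mark that 5.37% of 11803 genes at 1 CPM or more in each library passed. The median size of the ratio was 0.18 for the family and 0.23 for all these genes. It was 0.17 for the 7429 of them with at least as many counts as Stat2. In CPM the members thus agreed between libraries about as well as other genes of their depth. In TPM, replicate 2 over replicate 1 was 0.987 for Stat2 and ran from 1.26 for Stat5a to 1.60 for Stat4. No background was computed for ratios in TPM. Stat2 was the one member higher in replicate 1.

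**Figure D4:**
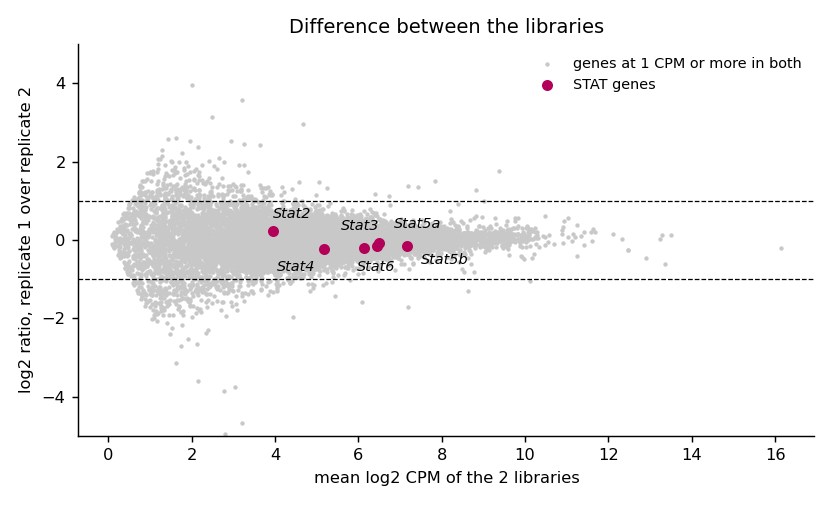
Log2 ratio of CPM, replicate 1 over replicate 2 (y axis), against mean log2 CPM (x axis), for 11803 genes in grey and the 6 STAT genes in magenta. Dashed lines mark 2-fold, and all 6 members lie between -0.24 and 0.24.

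The genes around the family were taken by role, and of their 86 genes 60 had 1 CPM or more in each library. Of those 60, 6 passed 2-fold between the libraries: Lifr, Id1, Irf7 and Usp18 were higher in replicate 1, and Il10ra and Rsad2 were lower. Across all genes 5.37% passed, 2.44% higher and 2.93% lower in replicate 1. Of these 6, Irf7 and Il10ra alone exceeded 1.2 TPM in either library.

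JAK kinases, which phosphorylate STAT proteins, were all detected. Jak1, shared by interferon and interleukin-6 family receptors, had 19.4 TPM in replicate 1 and 24.6 TPM in replicate 2. Jak2, the kinase of the erythropoietin receptor, had 13.6 and 15.3 TPM. Jak3, which pairs with the common gamma chain, had 1.97 and 3.13 TPM, and Tyk2, a kinase of the interferon and interleukin-12 receptors, 2.11 and 2.22 TPM. Jak2 lay in the range of Stat3 and Jak1 above it, while Jak3 and Tyk2 were closer in level to Stat2 than to any other member.

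Among receptors above Stat5a and Stat5b, 6 of 12 genes reached 1 TPM in both libraries, against 42.5% of nuclear protein-coding genes. Their medians were 1.08 and 0.985 TPM in replicates 1 and 2. Il2rg, the common gamma chain, was the highest at 11.3 TPM in replicate 1 and 7.96 TPM in replicate 2. Epor, the erythropoietin receptor, had 2.34 and 4.43 TPM, and Il3ra, the interleukin-3 receptor alpha chain, 2.59 and 2.44 TPM. Il2rg was above both Stat5 genes in replicate 1 and below both in replicate 2, and every other receptor of the list was lower than either Stat5 gene in both libraries.

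Receptors above Stat3 had 4 of 9 genes at 1 TPM or more in both libraries, against 42.5% of nuclear protein-coding genes. Il10rb was the highest of these receptors, at 7.26 TPM in replicate 1 and 11.8 TPM in replicate 2. Csf3r, the G-CSF receptor, had 6.96 and 7.54 TPM in replicates 1 and 2, Il6st, the shared signal chain gp130, 5.87 and 7.79 TPM, and Il6ra, which binds interleukin-6, 2.31 and 2.94 TPM, while Osmr was at 0. Of the interferon receptors above Stat2, Ifnar1 had 7.23 and 9.62 TPM and Ifnar2 18.4 and 25.5 TPM, both above Stat2 itself, and the lambda chain Ifnlr1 0.06 and 0 TPM. Above Stat4, Il12rb2 had 1.1 and 1.16 TPM, Il12rb1 0.53 and 0.35 TPM, and Il23r 0.13 and 0 TPM. Above Stat6, Il4ra had 4.1 and 3.67 TPM and Il13ra1 0 and 0.05 TPM. Each receptor given for Stat4 and Stat6, leaving out Il2rg, was lower than the member it signals through.

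Inhibitors and partners are read against the 42.5% of nuclear protein-coding genes at 1 TPM or more in both libraries. All 8 PIAS proteins and phosphatases reached that level, led by Ptpn6, the phosphatase SHP-1 of blood cells, with 48.7 TPM in replicate 1 and 69.6 TPM in replicate 2. Of 8 SOCS inhibitors 5 did, and the highest were Socs6 at 4.23 and 6.24 TPM and Socs4 at 4.56 and 5.84 TPM. Socs3, the feedback inhibitor of Stat3 signals, had 1.73 and 2.32 TPM. Cish and Socs2, feedback genes of Stat5, had 0.08 and 0.06 TPM and 0.18 and 0 TPM, from 16 and 53 reads and from 10 and 0 reads. All 6 partners reached 1 TPM, among them Nmi at 16.1 and 14.0 TPM and the acetyltransferase Ep300 at 6.22 and 10.3 TPM.

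Cish is shown with its start window, chr9:107296409-107296708 on the plus strand (RefSeq, GRCm38.p6), because it is the textbook Stat5 target and was near 0 beside both Stat5 genes. Capitals mark a pair of TTCNNNGAA matches. Cish was the only match among 7 start windows of known Stat5 targets, which covered 4 of the 8 genes. One was held by 1 of 11 windows of known Stat3 targets (Socs3), 1 of 6 of Stat2 targets, 3 of 9 of Stat4 targets and 2 of 6 of Stat6 targets, against 8.30% of all windows. The Stat2 and Stat6 windows each covered 6 of 8 genes.
Cish: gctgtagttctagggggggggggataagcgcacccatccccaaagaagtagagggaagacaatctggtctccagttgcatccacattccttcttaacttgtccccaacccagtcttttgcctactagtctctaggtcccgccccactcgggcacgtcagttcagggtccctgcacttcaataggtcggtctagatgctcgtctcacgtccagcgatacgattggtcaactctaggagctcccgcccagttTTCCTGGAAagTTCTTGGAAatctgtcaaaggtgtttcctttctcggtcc

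Of the genes listed as known targets, 4 of 8 for Stat5 reached 1 TPM in both libraries, 5 of 8 for Stat3, 1 of 8 for Stat2, 3 of 6 for Stat4 and 2 of 8 for Stat6, against 42.5% of nuclear protein-coding genes. For Stat5, Pim1, a survival kinase, had 23.9 TPM in replicate 1 and 32.5 TPM in replicate 2, and Ccnd2, a D cyclin, 12.6 and 17.2 TPM. For Stat3, Fos had 87.8 and 109 TPM, Mcl1, which blocks cell death, 28.8 and 34.5 TPM, and Junb 16.9 and 22.4 TPM. Many of these genes answer to other signals as well, so their levels do not measure STAT activity.

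Known Stat2 targets, the interferon-stimulated genes, were low, with medians of 0.56 TPM in replicate 1 and 0.76 TPM in replicate 2. Oas1a was the member above 1 TPM in both, at 4.2 and 3.43 TPM, while Isg15 had 0 and 0.82 TPM and Ifit1 0.03 and 0.38 TPM. Irf7 had 5.37 and 0.7 TPM from 234 and 209 reads, a log2 CPM ratio of 1.73. RefSeq start windows were at hand for 6 of these 8 genes. The interferon core was in 5 of those 6 windows (Ifit1, Ifit3, Isg15, Oas1a and Rsad2), against 3.44% of all windows. Known Stat6 targets had medians of 0.03 and 0.235 TPM, and Arg1, Retnla and Ccl24 were at 0 in both libraries. Of known Stat4 targets, Ifng had 0 and 0.1 TPM and Tbx21 0 and 0.13 TPM, while Il18rap had 3.09 and 2.73 TPM.

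**Figure D5:**
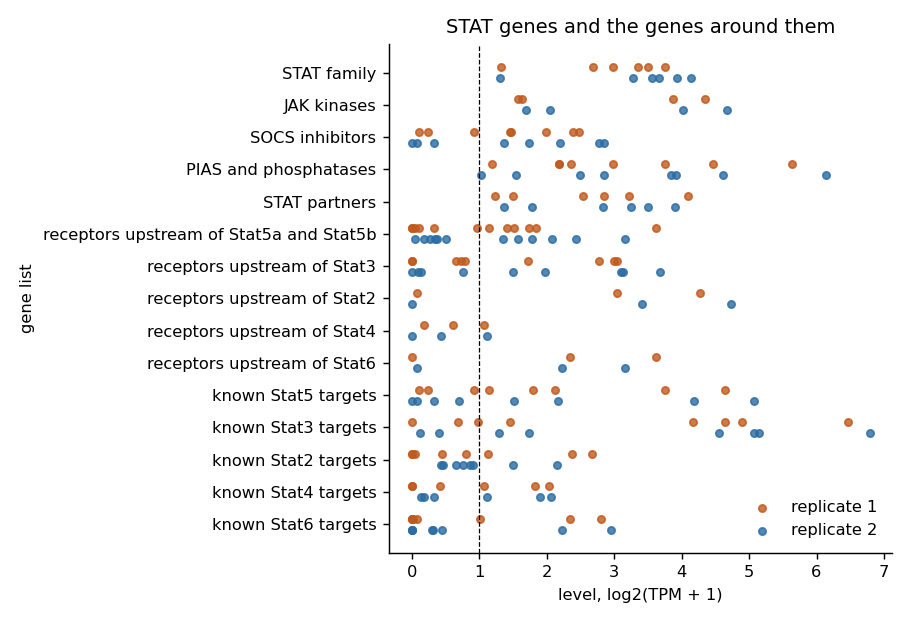
Level as log2(TPM + 1) (x axis) of every gene in 15 lists around the STAT family (y axis), for replicate 1 in orange above replicate 2 in blue. The dashed line marks 1 TPM; the 6 STAT genes all lie to its right, and known Stat2 and Stat6 targets lie mostly to its left.

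By distance in log2(TPM + 1) over both libraries, the listed gene nearest in level was Ccnd2 for Stat3 (12.6 and 17.2 TPM), Gata2 for Stat5b (8.93 and 13.7 TPM), Pecam1 for Stat5a (8.76 and 12.6 TPM), Il10rb for Stat6 (7.26 and 11.8 TPM), Il6st for Stat4 (5.87 and 7.79 TPM) and Nfil3 for Stat2 (1.35 and 1.58 TPM). With 2 libraries this likeness is one of level and not of pattern.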

How the data were processed

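Per the readme of each library, gene and transcript quantifications deposited by the authors use mm10 with GENCODE M4. The aligner and quantifier are not given in the sources used here. Per the file headers, values are expected counts, TPM, posterior mean TPM, FPKM and isoform percent, with interval bounds of TPM whose level is not stated. FPKM was not used, and the deposited isoform percent served as an alternative. TPM is relative to all entries of a table.

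Gene identifiers were matched to GENCODE M21 on GRCm38, and 138 of 139 genes in 21 lists were found. The 35 models of the STAT genes had the same length in both annotations. The members and lists were chosen with earlier results of these data known. Every STAT and list gene could be named, apart from 1 receptor gene that is not reported here, with the list gene outside the family nearest in level to each member. CPM was scaled with TMM in edgeR 4.0.16, or size factors of DESeq2 1.42.0, in R 4.3.3, on counts rounded to whole numbers, with a prior count of 0.5. A count of 0 allows 3 counts, which is 0.107 CPM in replicate 1 and 0.0357 CPM in replicate 2, for counting error only. Proteins were aligned with MAFFT 7.526. Everything else used Python 3.11.15 with numpy 2.4.6, pandas 2.3.3, biopython 1.88 and matplotlib 3.10.9, and the ratio step was tested on simulated data. With 1 group and 2 libraries no p-value was computed.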

Additional observations from a re-analysis of the deposited data

How the results depend on the processing

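There were 54 alternative values that kept both libraries, for 22 results. Of these, 46 moved by less than the spread between the libraries or, for a count, by less than 1.5 times. That spread (SD) was 20.2 percentage points for the share of Stat4-202 and 0.0141 TPM for Stat2. Results with a wide spread thus pass easily and those with a narrow one do not, so the tally does not measure stability alone. The other 30 values left out a library, which with 2 libraries gives the remaining library's own value and says nothing about stability: the share of Stat4-202 was 64.4% in replicate 1 and 35.8% in replicate 2. Posterior mean TPM gave 1.465 TPM for Stat2 (against 1.48), 89.4% for Stat2-201 (against 100%) and 30.0% for Stat3-201 (against 31.1%). Full-length coding models alone, a choice made after seeing the data, gave 9.06 TPM for Stat3 (against 14.6), and the order of levels changed with it. The log2 ratio of Stat5b over Stat5a was 0.67 by CPM without length correction (against 0.22). The Stat3 beta form held 8.37% over protein-coding models (against 5.22% over all). Genes at least 2-fold apart numbered 5123 with no filter and 128 at 5 CPM or more (against 634). No paired analysis was possible because there was 1 group. With 2 libraries of 1 donor label, the spread cannot be divided into biological and technical parts, and splits among models with shared exons rest on the quantifier's model.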
